A study of Mus musculus with 6 samples.

Results

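The genes described here encode the cytochrome P450 enzymes of families 1, 2 and 4, without Cyp2b10. They were taken by symbol from the deposited gene table, in which 52 of 19616 rows had a name of this kind, and 40 of the 52 had enough reads to be tested. Jejunal intestinal epithelial cells (IEC), enriched by EDTA treatment, came from 3-month-old mice. The control group was wild-type (mice C1, C3 and C3-3), and the Hdac1/2-deleted group was villin-Cre Hdac1-/-; Hdac2-/- (mice H1, H5 and H9). Each of the 6 libraries came from 1 mouse on a mixed C57BL/6J, 129SV and CD1 background, and the villin promoter drives Cre in the intestinal epithelium. The comparison addressed which P450 transcripts differed when the class I histone deacetylase genes Hdac1 and Hdac2 were both deleted in IEC.

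Cytochrome P450 enzymes are heme proteins of the endoplasmic reticulum and mitochondria that insert oxygen into lipophilic substrates. Family 1 is controlled by the aryl hydrocarbon receptor (AHR) and handles planar aromatic compounds. Family 2 handles drugs and other xenobiotics, and also steroids, vitamin D and arachidonic acid. Family 4 hydroxylates the terminal carbons of fatty acids and eicosanoids, including leukotriene B4. In the small intestine these enzymes are found mainly in villus enterocytes, which meet absorbed compounds before the liver does. In rodents many members lie in tandem clusters of recently duplicated genes.

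Library totals ranged from 36111035 counts in H5 to 65902344 in C1. Hdac1 fell in the deleted mice, from 40.8 ± 7.33 to 3.77 ± 1.16 CPM (read counts relative to library size, scaled by the TMM method; mean ± SD, n = 3), with an edgeR adjusted p = 2.9e-05. Hdac2 mRNA had 27.7 ± 4.72 CPM in control and 24.5 ± 2.70 CPM in deleted mice and overlapped between groups, so this count did not check the Hdac2 label. The 6 epithelial markers listed summed to between 11329 and 13082 CPM in controls and between 8794 and 10799.7 CPM in deleted mice. The 9 enterocyte markers summed to between 77652 and 91189 CPM in controls and between 26942 and 36979 CPM in deleted mice. Much of that difference was Apoa4, at 38393 CPM in controls and 6283 CPM in deleted mice on average. Of the 9, 8 were lower without overlap (88.9%, against 26.6% of all tested genes). Over the 9 markers the median log2 fold change was -0.78, with 4 decreased and Alpi increased (1.20, adjusted p = 0.019). Of all tested genes 12.7% were decreased and 12.4% increased. In these bulk samples fewer cells of a type and less RNA per cell cannot be told apart. The 3 smooth muscle markers (Myh11, Des, Actg2) summed to 45.3 CPM in C1, 34.4 in C3, 1.58 in C3-3 and at most 0.316 in the deleted mice. Reads of 4 Y-linked genes numbered 3082 in C3 and at most 13 in each of the other libraries. The part of these differences in the P450 values was not tested.

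Reads of the 52 P450 genes together were fewer in every deleted mouse. Their summed level was 4858, 5677 and 5953 CPM in C1, C3 and C3-3, and 2197, 2553 and 2912 CPM in H1, H5 and H9. The highest deleted mouse therefore stayed below the lowest control. Of the 40 tested genes, 18 were decreased and 4 were increased (at least 2-fold, adjusted p at most 0.05 by edgeR's quasi-likelihood test), that is 45.0% and 10%. Across all 15618 tested genes, 12.7% were decreased and 12.4% increased. With library totals in place of TMM, 17 P450 genes were decreased and 7 increased (1538 and 2463 of all genes, against 1990 and 1944 with TMM), and without C1 the counts were 23 and 7. The median log2 fold change, deleted against control, was -1.19 over the tested P450 genes and -0.01 over all tested genes. In 19 P450 genes every deleted mouse was below every control (47.5%, against 26.6% of all genes), and in 8 every deleted mouse was above (against 26.7%). Family 4 had 7 decreased and no increased genes among 12 tested, with a median of -1.70. Family 2 had 11 decreased and 3 increased among 26, with a median of -1.19, and family 1 had 1 increased among 2.

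**Figure D1:**
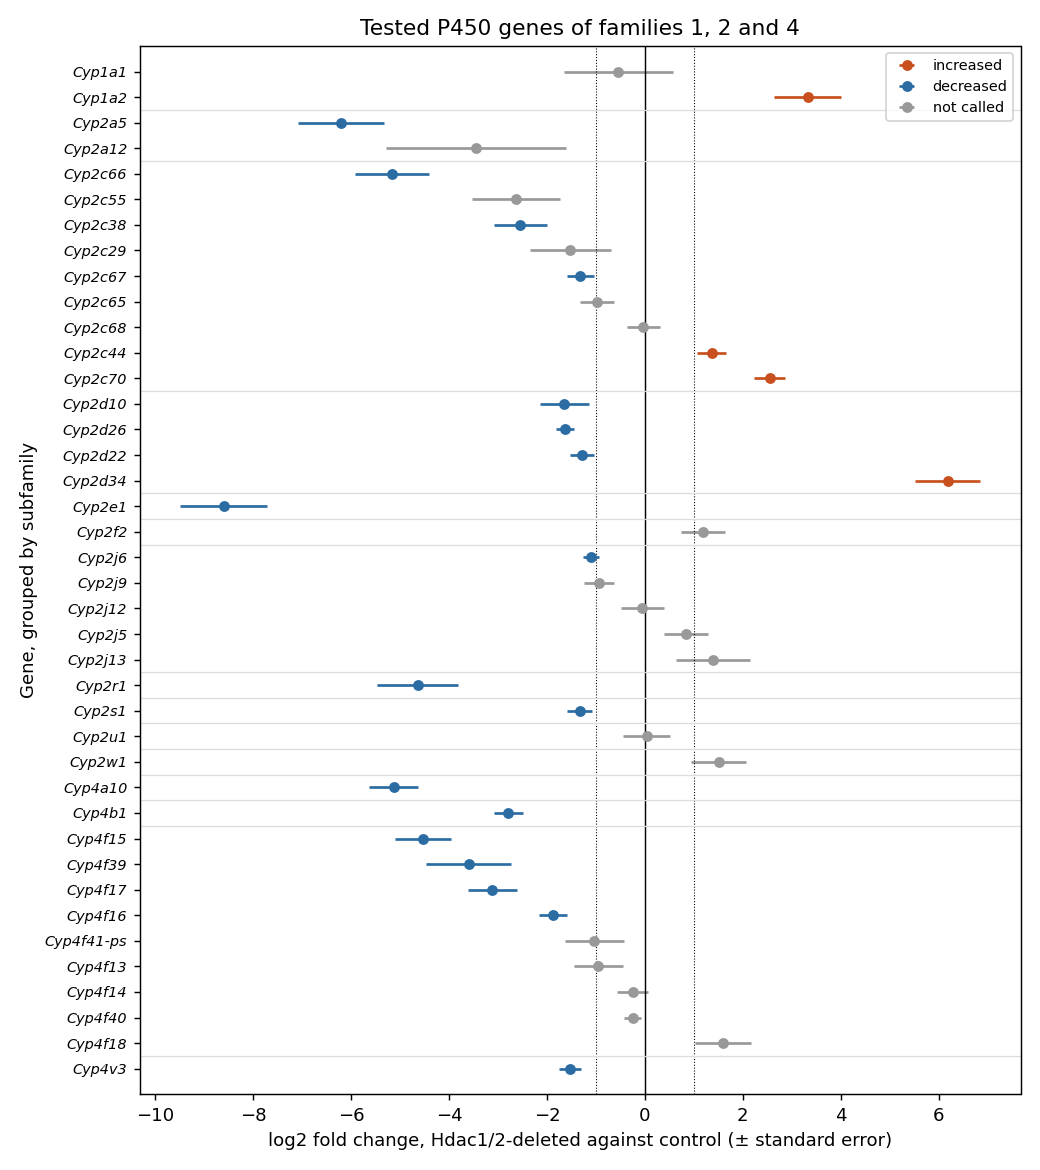
Log2 fold change (deleted against control, horizontal axis) of the 40 tested P450 genes, grouped by subfamily, with bars of 1 standard error and dotted lines at the 2-fold limits. The 18 decreased genes spread over Cyp2 and Cyp4 subfamilies. The point for Cyp2e1, at 0 counts in all deleted mice, depends on the prior count (-8.60 as drawn, -4.65 with a prior count of 2), and the 4 increased genes are Cyp1a2, Cyp2c44, Cyp2c70 and Cyp2d34.

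In the Cyp2c subfamily, Cyp2c65 and Cyp2c66 lie head to tail on chromosome 19 with their starts 52.9 kb apart. Both encode arachidonate-metabolizing enzymes found in the gut. Their upstream sequences are shown because the genes had unlike calls and nearly alike upstream bases. The 250 bases before the RefSeq start (GRCm38.p6, plus strand) are chr19:39060756-39061005 for Cyp2c65 and chr19:39113648-39113897 for Cyp2c66, with the TATA-like letters TATAAA and the letters CAAAGTCCA, a core bound by HNF4-type receptors, in capitals.
Cyp2c65: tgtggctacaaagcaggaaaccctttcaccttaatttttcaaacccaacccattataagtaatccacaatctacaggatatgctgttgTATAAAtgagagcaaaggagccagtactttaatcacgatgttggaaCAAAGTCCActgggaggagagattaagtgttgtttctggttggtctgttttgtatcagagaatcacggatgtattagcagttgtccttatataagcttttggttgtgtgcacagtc
Cyp2c66: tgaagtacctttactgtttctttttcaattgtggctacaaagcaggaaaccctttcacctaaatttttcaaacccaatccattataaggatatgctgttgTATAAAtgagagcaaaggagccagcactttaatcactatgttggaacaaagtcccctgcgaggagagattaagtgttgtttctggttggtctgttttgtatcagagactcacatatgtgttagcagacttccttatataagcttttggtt
Over 238 aligned columns, 208 bases were identical, 13 were substituted and 17 were gaps, an identity of 94.1% without gaps. CAAAGTCCA stood at positions 135 to 143 of the Cyp2c65 sequence, counted from its printed 5′ end. The substitution A143C fell on its last base, so Cyp2c66 lacked these letters. The pair and the core were chosen after values and sequences had been seen.

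Cyp2c66 had 26.2, 102 and 73.7 CPM in C1, C3 and C3-3, and 1.07, 1.16 and 3.36 CPM in H1, H5 and H9. It fell in all deleted mice, by 5.16 ± 0.75 on the log2 scale (SE; adjusted p = 0.003), and the log2 fold change was -5.92 without H9. Cyp2c65 had 123, 297 and 189.8 CPM in controls and 92.4, 77.2 and 139 CPM in deleted mice. Here the groups overlapped through H9, and the log2 fold change of -0.98 ± 0.35 did not pass the test (adjusted p = 0.057). It was called decreased without C1 (-1.24, adjusted p = 0.011) and without H9 (-1.26, adjusted p = 0.034). The ratio of Cyp2c66 to Cyp2c65 CPM was 0.213, 0.344 and 0.388 in controls and 0.0115, 0.0150 and 0.0241 in deleted mice, lower in every deleted mouse. An exact permutation test of 3 against 3 mice cannot go below p = 0.10. Of all 100-base windows in their transcripts, 7.82% of those of Cyp2c65 and 8.55% of those of Cyp2c66 were shared between them. Reads lying wholly within these windows may not have been placed with certainty, which was not tested.

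Cyp2c38 and Cyp2c67, further along the cluster, were decreased. Cyp2c38, an arachidonate-metabolizing enzyme, had 3.53, 4.20 and 9.90 CPM in controls and 0.648, 0.606 and 1.74 CPM in deleted mice. It fell by 2.54 ± 0.55 (log2, adjusted p = 0.0068), with values of -1.94 without C3-3 and -3.21 without H9. Cyp2c67 had 3.52, 4.90 and 4.40 CPM against 1.34, 1.95 and 1.85 CPM, a log2 fold change of -1.32 ± 0.28 (adjusted p = 0.0054). Both genes had groups that did not overlap. For Cyp2c67, 23.7% of transcript windows were shared with paralogs, so its level is uncertain.

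Cyp2c68, which shared 19.8% of windows, was not called, with 47.5, 57.1 and 61.4 CPM in controls and 58.5, 28.0 and 75.9 CPM in deleted mice. Its log2 fold change was -0.03 ± 0.33 (adjusted p = 0.95), and the deleted mice bracketed the controls. At the far end Cyp2c70, known in mouse liver as the enzyme that makes muricholic bile acids, rose from 1.81, 1.22 and 2.56 CPM to 8.65, 13.2 and 11.0 CPM. This was a log2 fold change of 2.55 ± 0.32 (adjusted p = 3.4e-04) without overlap. Cyp2c44, an epoxygenase of arachidonic acid that lies outside the main array, had 5.10, 9.70 and 12.3 CPM in controls and 20.4, 22.3 and 26.6 CPM in deleted mice. It rose by a log2 fold change of 1.36 ± 0.30 (adjusted p = 0.0066), with every deleted mouse above every control.

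Cyp2c55, an enzyme of colon and intestine, varied strongly among controls, with 2.58 CPM in C1, 29.7 in C3 and 23.9 in C3-3. The deleted mice held 2.23, 2.26 and 4.52 CPM, close to C1. The log2 fold change of -2.63 ± 0.89 did not pass the test (adjusted p = 0.061), but was called without C1 (-3.15, adjusted p = 2.0e-04). Cyp2c29 had 1.24, 4.14 and 10.6 CPM in C1, C3 and C3-3 and 1.05, 1.03 and 3.45 CPM in deleted mice, a log2 fold change of -1.52 and an adjusted p of 0.19. It was called without C1 (-1.99, adjusted p = 0.048), and its log2 fold change was -0.53 without C3-3. In all, 3 of 9 tested Cyp2c genes were decreased and 2 increased. That is 33.3% and 22.2%, against 12.7% and 12.4% of all tested genes.

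**Figure D2:**
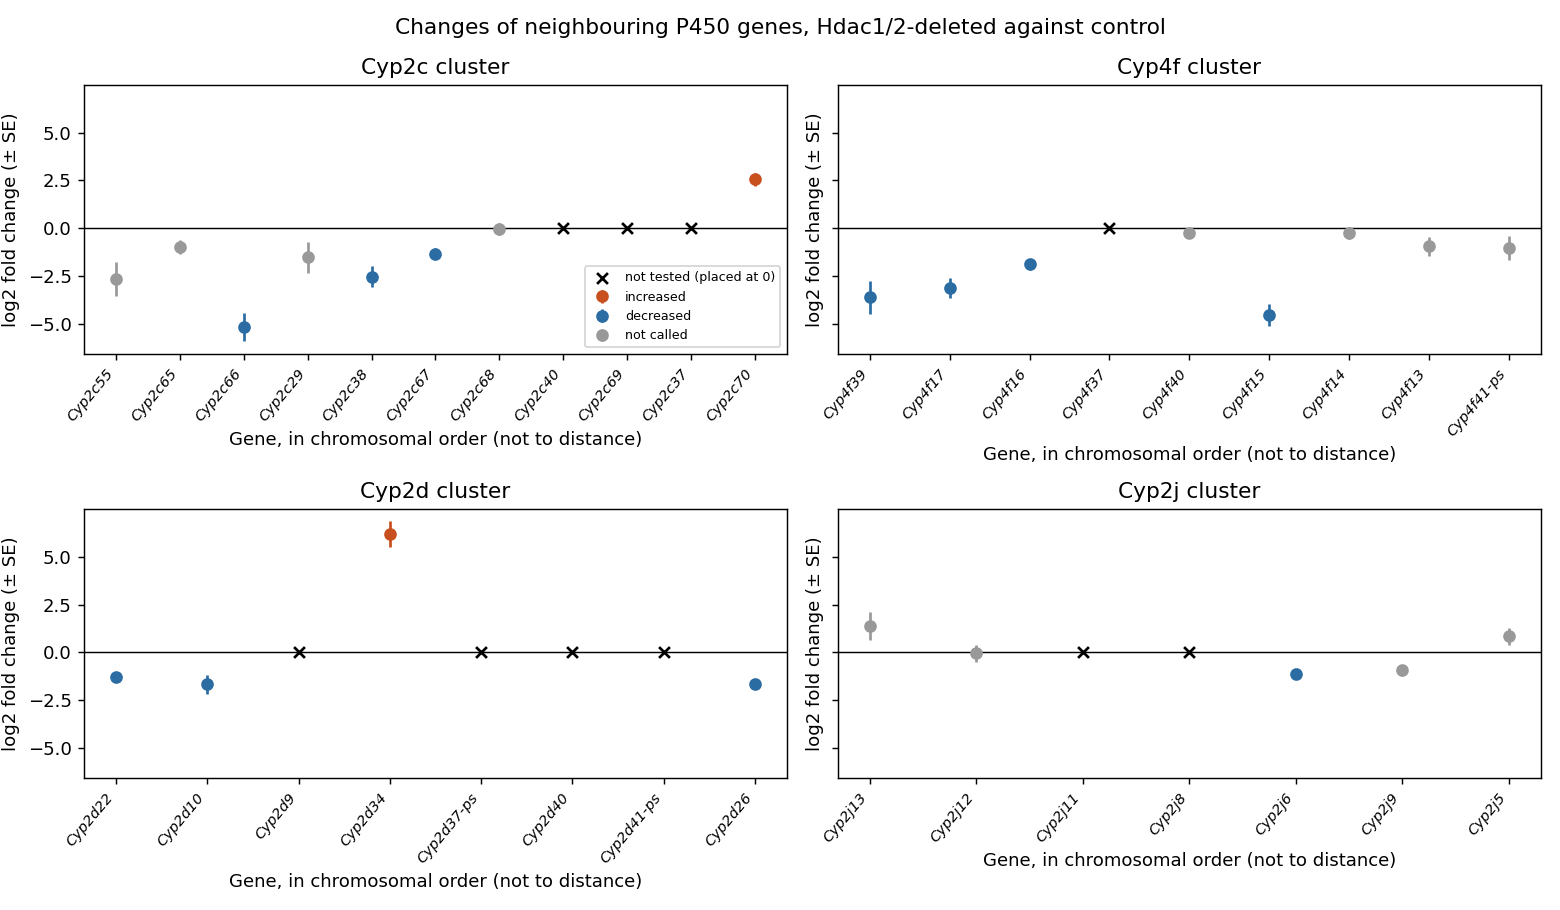
Log2 fold change (vertical axis, bars of 1 standard error) of the genes of the Cyp2c, Cyp4f, Cyp2d and Cyp2j clusters in chromosomal order (horizontal axis, spacing not to distance), with crosses for untested genes placed at 0. Along the Cyp2c cluster values run from -5.16 for Cyp2c66 to 2.55 for Cyp2c70, and in the Cyp2d cluster Cyp2d34, at 6.18, stands between decreased genes.

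The letters CAAAGTCCA, searched on both strands in 250 bases before to 50 after each RefSeq start, occurred in 6 of 43 P450 genes with such a window, all of them in Cyp2c (Cyp2c40, Cyp2c65, Cyp2c67, Cyp2c68, Cyp2c69 and Cyp2c70). These made up 12.5% of P450 windows, against 0.475% of all 32851 windows. Among 8 tested Cyp2c genes with a window, the 4 that held the letters had log2 fold changes of -0.98 (Cyp2c65), -1.32 (Cyp2c67), -0.03 (Cyp2c68) and 2.55 (Cyp2c70). The 4 without them had -1.52 (Cyp2c29), -2.54 (Cyp2c38), -2.63 (Cyp2c55) and -5.16 (Cyp2c66). The core was picked after these values were known and its members are related by duplication, so the split is a description only. TATAAA occurred in 41.7% of P450 windows and 13.6% of all windows, and the receptor half-site AGGTCA in 12.5% and 16.3%. An HNF1-type element was in none of the P450 windows and in 0.0609% of all windows. Hnf4a mRNA was at 728 ± 43.7 CPM in controls and 593 ± 33.3 in deleted mice (log2 fold change -0.30, adjusted p = 0.13), and Hnf4g at 297 ± 69.1 and 162 ± 53.1 (-0.88, adjusted p = 0.023, under the 2-fold limit).

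In the Cyp2d cluster on chromosome 15, whose human counterpart CYP2D6 metabolizes many drugs, 3 of 4 tested genes were decreased and 1 increased. Across all tested genes 12.7% were decreased and 12.4% increased. Cyp2d26, the highest Cyp2d gene per kilobase, had 799, 1162 and 891 CPM in controls and 261, 322 and 337 CPM in deleted mice. It fell by 1.63 ± 0.19 on the log2 scale (adjusted p = 2.7e-04), well apart between groups. Cyp2d22 had 94.8, 173 and 123 CPM against 42.5, 52.8 and 66.1 CPM, a log2 fold change of -1.28 ± 0.24 (adjusted p = 0.0034), also without overlap.

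Cyp2d34 lies between them (GRCm38 chr15:82615965-82620946, minus strand) and went the other way. It had 0, 6 and 3 counts in C1, C3 and C3-3, that is 0, 0.108 and 0.0565 CPM, and 297, 140 and 256 counts in H1, H5 and H9, that is 4.01, 3.69 and 4.16 CPM. The deleted mice were close together, and the fitted log2 fold change was 6.18 ± 0.67 (adjusted p = 1.7e-04), with 5.55 without C1 and 7.16 without C3. None of its transcript windows was shared with another gene. Cyp2d10 had few reads, with 0.589, 0.720 and 1.09 CPM in controls and 0.121, 0.290 and 0.358 CPM in deleted mice (-1.65 ± 0.50, adjusted p = 0.027). It shared 14.8% of its windows with paralogs. Its call was lost without C3-3 (-1.36, adjusted p = 0.099), without H1 (-1.29, adjusted p = 0.081) and without H5 (-1.74, adjusted p = 0.06).

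In the Cyp2j subfamily, which includes epoxygenases of arachidonic acid, the dominant gene was Cyp2j6. It had 611, 535 and 709 CPM in controls and 265, 289.6 and 313 CPM in deleted mice, and fell by 1.10 ± 0.16 on the log2 scale (adjusted p = 8.3e-04) without overlap. The fall was just under 2-fold without C3-3 (-0.98) and with library totals in place of TMM (-0.91). Cyp2j9 had 18.0, 14.0 and 32.8 CPM against 10.3, 10.5 and 13 CPM. Its groups did not overlap and its adjusted p was 0.036, but the log2 fold change of -0.94 ± 0.30 was under the 2-fold limit, which it passed without C1 (-1.05) or C3 (-1.16). The other tested genes, Cyp2j5 (0.84), Cyp2j12 (-0.05) and Cyp2j13 (1.39), stayed under 1 CPM in every mouse and were not called. Without C3-3 the log2 fold change of Cyp2j13 was 2.39 (adjusted p = 0.051).

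Cyp2e1, Cyp2r1 and Cyp2a5 were scarce in controls and decreased to a few reads or none. Cyp2e1, the ethanol-oxidizing enzyme best known from liver, had 75, 41 and 33 counts in C1, C3 and C3-3 (1.13, 0.738 and 0.621 CPM) and 0 counts in every deleted mouse. Against the level that 3 counts stand for in the shallowest deleted library, 0.079 CPM, it was at least 10.5-fold lower, and its adjusted p was 4.1e-04. Hepatocyte markers summed to between 490.2 and 698 CPM in controls and between 541 and 849 CPM in deleted mice, most of it Cps1. Cps1 had means of 622 CPM in controls and 625 CPM in deleted mice and was not called (0.01, adjusted p = 0.98). Apoh (1.01 and 1.55 CPM) and F2 (0.332 and 0.188 CPM) were not called either. Of the 6 markers, Alb was decreased (0.910 to 0.259 CPM on average). Ttr (1.56 to 26.3 CPM) and Tat (0.0793 to 5.35 CPM) were increased. The part of hepatocytes in the Cyp2e1 values was not tested. Cyp2r1, which carries out the first hydroxylation of vitamin D, had 0.695, 0.954 and 0.546 CPM in controls and 0.0675, 0 and 0 CPM in deleted mice. Its fitted log2 fold change was -4.64 ± 0.83 (adjusted p = 0.0023), or -8.33 without H1, which held the only 5 counts of that group.

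Cyp2a5, a coumarin hydroxylase, had 0.574, 0.666 and 1.84 CPM in controls and 0, 0.0263 and 0.0163 CPM in deleted mice. With 173 counts over the controls and 2 over the deleted mice, the ratio of levels was 85.8 (95% exact binomial interval 23.4 to 714, for counting error only). The edgeR fit gave -6.20 ± 0.88 on the log2 scale (adjusted p = 6.8e-04), -5.47 without C3-3 and -5.50 without H1. Its relative Cyp2a12 was at 0, 2.09 and 1.41 CPM in controls and 0, 0.342 and 0.0325 CPM in deleted mice. With 1 control at 0 it was not called (log2 fold change -3.45 ± 1.83, adjusted p = 0.18), but it was without C1 (-4.05, adjusted p = 0.034). Without H5 its log2 fold change was -6.09, and without C3 and without H1 it was -2.69 and -2.73.

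Cyp2s1, an epithelial enzyme of the airway and gut, was abundant and lower in all deleted mice. It had 93.2, 145 and 155 CPM in controls and 47.1, 40.7 and 68.6 CPM in deleted mice, a log2 fold change of -1.33 ± 0.25 (adjusted p = 0.0031), and shared 5.26% of its windows with the overlapping Gm26707. Cyp2u1, a fatty acid hydroxylase, had 10.9, 10.4 and 32.1 CPM against 17.2, 12.8 and 24.8 CPM and did not pass the test (0.04 ± 0.48, adjusted p = 0.96), with 0.79 without C3-3. It overlaps another annotated gene over 10.4% of its windows. Cyp2f2 (1.18, adjusted p = 0.064) and Cyp2w1 (1.51, adjusted p = 0.059) stayed under 1 CPM in every mouse, and neither was called although every deleted mouse was above every control. Cyp2w1 was called without C1 (2.23, adjusted p = 0.02).

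Each of the Cyp4v, Cyp4b and Cyp4a subfamilies had 1 tested gene, and all 3 were decreased. Cyp4v3, a fatty acid omega-hydroxylase whose human counterpart is mutated in a retinal lipid dystrophy, had 1402, 1349.6 and 1693 CPM in controls. In deleted mice it had 396, 486 and 657 CPM, and fell by 1.53 ± 0.22 on the log2 scale (adjusted p = 6.9e-04) with a wide gap between groups. In its transcript 5.77% of windows were shared with Gm45753, an overlapping annotated gene. Cyp4b1, which hydroxylates medium-chain fatty acids, had 173, 120.2 and 155 CPM against 12.6, 26.3 and 25.8 CPM. It fell by 2.79 ± 0.30 (adjusted p = 2.3e-04), the steepest fall among the genes of families 1, 2 and 4 described here with a control mean over 100 CPM. Cyp4a10, a fatty acid omega-hydroxylase and classical target of the receptor PPARA, had 6.58, 7.45 and 5.51 CPM against 0.148, 0.0527 and 0.325 CPM. Its log2 fold change was -5.13 ± 0.50 (adjusted p = 9.8e-05), or -5.86 without H9, and 12.7% of its windows were shared with paralogs.

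**Figure D3:**
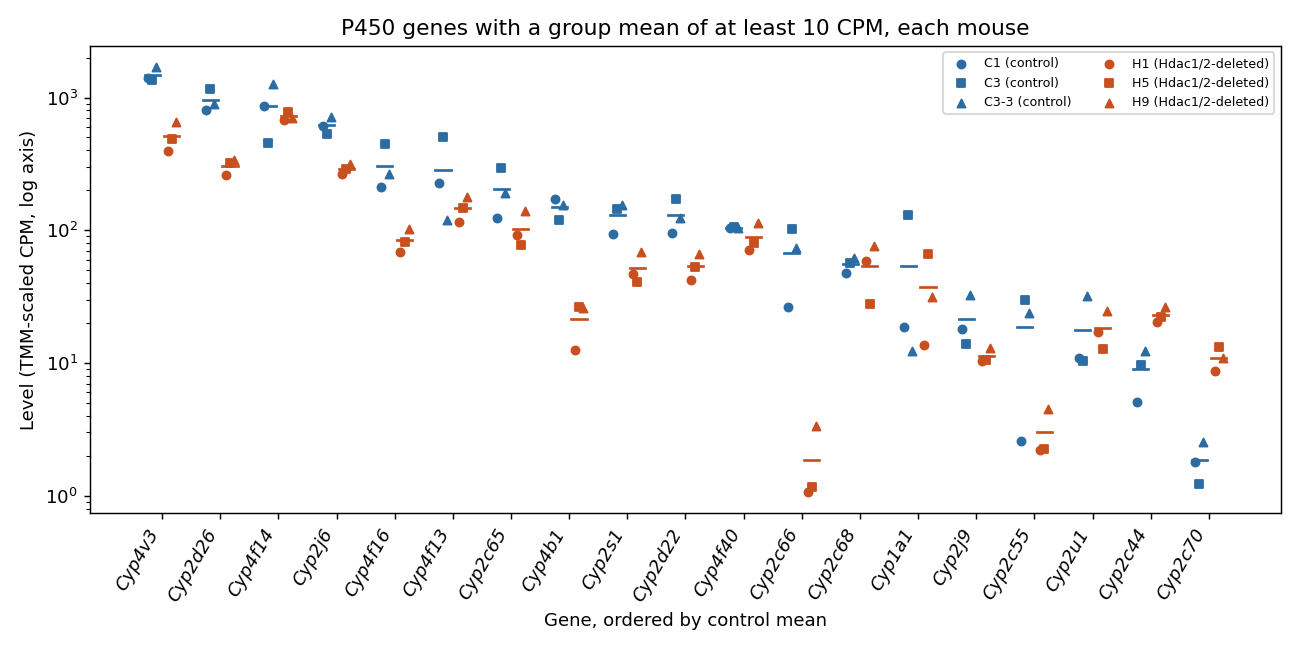
Level (CPM, log axis) of the 19 P450 genes with a group mean of at least 10 CPM, with a symbol for each mouse and a line at each group mean. Control (blue) and deleted (orange) mice are apart for Cyp4v3, Cyp2d26, Cyp2j6, Cyp4b1 and Cyp2c66, and overlap for Cyp4f14, Cyp4f13, Cyp4f40, Cyp2c68, Cyp1a1 and Cyp2u1.

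The Cyp4f genes, which inactivate leukotriene B4 and related lipids by omega-oxidation, split within 1 cluster on chromosome 17. Cyp4f16 had 211, 445 and 264 CPM in controls and 68.5, 81.6 and 102 CPM in deleted mice, and fell by 1.87 ± 0.29 on the log2 scale (adjusted p = 0.0013) without overlap. Cyp4f14, a leukotriene B4 hydroxylase, had 864, 452 and 1255 CPM against 682, 779 and 702 CPM. All deleted mice lay inside the control range, and its log2 fold change was -0.25 ± 0.32 (adjusted p = 0.57). Cyp4f40 had 104, 106 and 104 CPM against 71.4, 80.3 and 113 CPM (-0.25 ± 0.18, adjusted p = 0.3), with H9 above all controls.

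Cyp4f13 varied among controls, with 227 CPM in C1, 505 in C3 and 119 in C3-3, against 115, 148 and 178 CPM in deleted mice. It was not called (-0.95 ± 0.50, adjusted p = 0.18), had -0.23 without C3 and was called without C3-3 (-1.31, adjusted p = 0.02). Cyp4f13 and Cyp4f16 were both highest in C3, the library with Y-linked reads, where Cyp4f14 was lowest. The other Cyp4f genes were scarce. Cyp4f15 had 3.37, 2.11 and 1.43 CPM in controls and 0.0405, 0.158 and 0.114 CPM in deleted mice, and fell by 4.53 ± 0.57 on the log2 scale (adjusted p = 3.6e-04). It stands next to Cyp4f14 and Cyp4f40 in the cluster, and no windows of these 3 genes were shared.

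Cyp4f17 had 0.589, 1.10 and 0.734 CPM against 0.0810, 0.0527 and 0.130 CPM (-3.12 ± 0.50, adjusted p = 0.0013). Cyp4f39, which omega-hydroxylates very long fatty acids of the skin barrier, had 0.347, 0.630 and 0.188 CPM against 0, 0.0527 and 0.0488 CPM (-3.60 ± 0.86, adjusted p = 0.0091, or -2.89 without H1). Both fell without overlap, so the 3 genes at the Cyp4f39 end of the cluster were all decreased. The pseudogene Cyp4f41-ps (-1.03, adjusted p = 0.21) and Cyp4f18, a leukotriene B4 hydroxylase of myeloid cells that lies on chromosome 8 (1.59, adjusted p = 0.051), were under 1 CPM and not called. Cyp4f18 was called without C1 (2.02, adjusted p = 0.047). The 6 leukocyte markers summed to between 35.8 and 109 CPM in controls and between 25.8 and 47.9 CPM in deleted mice. Of the 5 tested, 4 had negative log2 fold changes, and Cd8a was the most abundant (39.4 CPM in controls). Cd68 went the other way, from 1.06 to 1.92 CPM (0.86, adjusted p = 0.091), with every deleted mouse above every control. The part of leukocytes in the Cyp4f18 values was not tested. Cyp4f37 was not tested: it had 162 counts in C3-3 and at most 7 in any other mouse.

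In family 1 the pair Cyp1a1 and Cyp1a2, divergent neighbours on chromosome 9, had unlike calls. Cyp1a1, the main AHR-induced enzyme of the gut, had 18.8, 130.2 and 12.3 CPM in controls and 13.6, 66.1 and 31.6 CPM in deleted mice. Both groups were spread widely, and the log2 fold change of -0.54 ± 1.12 (adjusted p = 0.74) became 1.26 without C3 and -1.25 without H5. Cyp1a2, largely a liver enzyme, had 0.106, 0.378 and 0.0941 CPM against 0.891, 1.63 and 3.28 CPM. It rose by a log2 fold change of 3.32 ± 0.69 (adjusted p = 0.0048), with 4.25 without C3 and 2.70 without H9, and every deleted mouse was above every control. Its level stayed under that of Cyp1a1, with a CPM ratio of 0.00290 to 0.00768 in controls and 0.0247 to 0.104 in deleted mice.

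The upstream sequence of Cyp1a1 is shown as the textbook AHR target (RefSeq, GRCm38.p6, chr9:57697363-57697612, plus strand). The letters GCGTG, the core of sites for AHR with its partner ARNT, start 54 bases before the start site and TATAAA 30 bases before it, both in capitals. Only the letters were matched. Binding of AHR at this place, and sites further upstream, were not tested.
Cyp1a1: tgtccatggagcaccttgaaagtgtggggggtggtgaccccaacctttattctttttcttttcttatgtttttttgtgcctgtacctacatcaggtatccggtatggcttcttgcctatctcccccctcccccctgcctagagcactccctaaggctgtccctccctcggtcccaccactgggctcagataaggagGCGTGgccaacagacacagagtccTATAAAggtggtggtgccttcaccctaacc
GCGTG was present in 27.1% of P450 windows and 32.4% of all windows, and Cyp1a2 did not hold it within the window searched. Of 9 tested genes of the AHR pathway list, 1 was increased and 1 decreased, and the list's median was -0.61 (log2). Each call made up 11.1% of the list, against 12.4% increased and 12.7% decreased of all tested genes. Ahr itself was at 13.5 ± 2.29 CPM in controls and 12.9 ± 1.40 in deleted mice (-0.07, adjusted p = 0.80). Arnt was at 43.9 ± 0.990 and 28.7 ± 3.98 CPM (-0.61, adjusted p = 0.009, under the 2-fold limit). The AHR target Nqo1, a quinone reductase, fell from 34.4 ± 14.7 to 8.92 ± 1.45 CPM (-1.94, adjusted p = 0.0015), and the chaperone gene Hsp90ab1 rose from 923 ± 283 to 1895 ± 234 CPM (1.04, adjusted p = 0.007).

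Per kilobase of exon, the order of levels changed between groups. In controls Cyp2d26 had a mean of 531 CPM per kb, Cyp4v3 389 and Cyp4f14 354. The range of Cyp4f14 (187 to 519) overlapped those of Cyp2d26 (446 to 649) and Cyp4v3 (354 to 445), which did not overlap each other. Cyp2j6 followed with 172 and Cyp2c65 with 105. In deleted mice Cyp4f14 was first, with a mean of 298 CPM per kb and a range of 282 to 322, apart from Cyp2d26 at 171 (146 to 188) and Cyp4v3 at 135 (104 to 173), which overlapped each other. Cyp4b1 went from the seventh to the fourteenth place, and Cyp2c44 from 17th to 12th. The CPM ratio of Cyp4f14 to Cyp4v3 was 0.616, 0.335 and 0.741 in controls and 1.72, 1.60 and 1.07 in deleted mice. Cyp4f14 took 17.8%, 7.96% and 21.1% of all P450 reads in controls and 31.0%, 30.5% and 24.1% in deleted mice.

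**Figure D4:**
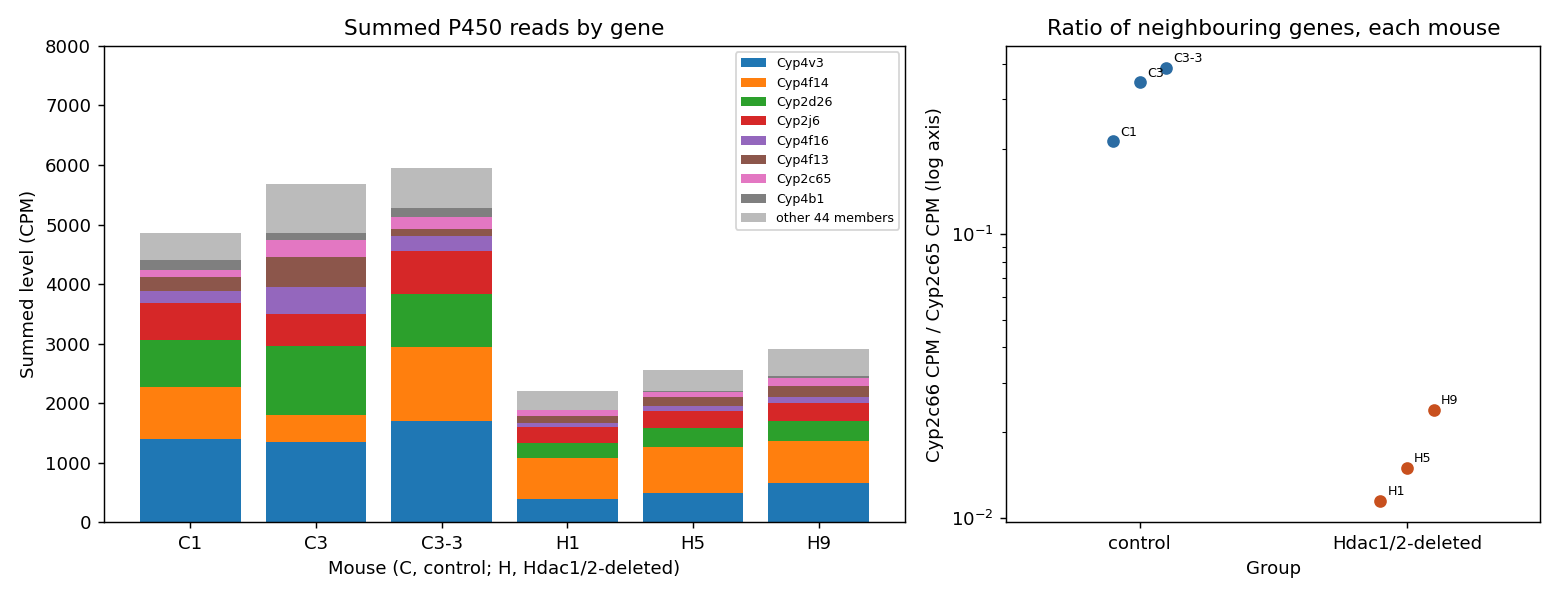
Left, summed CPM of the 52 P450 genes in each mouse (bars from 0, stacked by gene), and right, the ratio of Cyp2c66 to Cyp2c65 CPM in each mouse on a log axis. Sums are 4858 to 5953 CPM in controls and 2197 to 2912 CPM in deleted mice, and the ratio is 0.213 to 0.388 in controls and 0.0115 to 0.0241 in deleted mice.

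Levels of abundant P450 genes differed between mice of 1 group. Among the 19 P450 genes with a group mean of at least 10 CPM, the highest control was a median of 2.11 times the lowest, and 11 of the 19 (57.9%) differed at least 2-fold. Over all genes of that level the median was 1.28 and the share 7.60%. In deleted mice the P450 median was 1.59 and the share 26.3%, against 1.30 and 5.84%. This difference in spread was not tested. Of these 19 genes, 8 were decreased and 2 increased, where 10.6% and 11.0% of all genes of that level were.

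Besides Cyp4f37, the other 11 untested genes had at most 17 counts in any mouse. They were Cyp1b1, Cyp2c37, Cyp2c40, Cyp2c69, Cyp2d9, Cyp2d37-ps, Cyp2d40, Cyp2d41-ps, Cyp2j8, Cyp2j11 and Cyp4a32, with row totals of 12 to 34 counts. No difference was detectable for them at this depth, except that Cyp2d40, with 0, 0 and 2 counts in controls and 8, 7 and 17 in deleted mice, was called by DESeq2 and by edgeR without a filter.

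P450 enzymes need electrons from partner proteins and heme. Por, the reductase that serves all microsomal P450 enzymes, had 350, 424 and 442 CPM in controls and 281, 244 and 292 CPM in deleted mice. It was lower in every deleted mouse but under the 2-fold limit (-0.57 ± 0.15, adjusted p = 0.016). Of 10 tested electron transfer genes 2 were decreased, the mitochondrial ferredoxin Fdx1 (-1.68, adjusted p = 4.8e-05) and the heme-binding Pgrmc1 (-1.37, adjusted p = 1.0e-04). Cyb5r1, a cytochrome b5 reductase, was increased (1.34, adjusted p = 0.0031), and the list's median was 0.01. Of 10 heme supply genes, only Hmox1, which degrades heme, was called (2.44, adjusted p = 5.6e-04, from 0.608 to 3.31 CPM), and the median was -0.11. For comparison with both lists, 12.7% of all tested genes were decreased and 12.4% increased.

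Among 18 receptors and other regulators of family 2 and 4 genes, 1 passed upward and 2 downward, and the list's median was -0.22. These shares, 5.56% and 11.1%, were below the 12.4% and 12.7% of all tested genes. The increased gene was the forkhead factor Foxa3 (1.71, adjusted p = 7.4e-05). The decreased genes were Nr1i3, which encodes the xenobiotic receptor CAR (-1.32, adjusted p = 4.5e-04), and Nr3c1, the glucocorticoid receptor (-1.17, adjusted p = 3.9e-04). Nr1i2, which encodes the xenobiotic receptor PXR, was under the 2-fold limit (-0.75, adjusted p = 0.026). Ppara had 51.8, 22.0 and 41.0 CPM in controls and 35.3, 28.2 and 24.5 CPM in deleted mice (-0.38, adjusted p = 0.33), and its partner Rxra was also not called (-0.16, adjusted p = 0.46).

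Among enzymes outside the P450 family that make or remove eicosanoids, 8 of 16 tested genes were decreased and 1 was increased, and the median was -1.37. Across all tested genes 12.7% were decreased and 12.4% increased. Ephx2, the soluble epoxide hydrolase that converts P450-made epoxides of arachidonic acid to diols, fell from 1406 ± 125 to 368 ± 74.3 CPM (-1.93, adjusted p = 1.0e-04). Ephx1, the microsomal hydrolase, fell from 32.0 ± 16.6 to 2.84 ± 0.168 CPM (-3.49, adjusted p = 5.0e-04). The prostaglandin- and leukotriene-inactivating enzymes Hpgd (-1.81, adjusted p = 0.026) and Ptgr1 (-2.98, adjusted p = 0.0021) were decreased. So were the leukotriene-forming genes Alox5 (-2.30), Alox5ap (-1.99) and Ltc4s (-5.68), and Pla2g4a (-2.06), which releases arachidonic acid from membranes. Of the 3 tuft cell markers, Dclk1 (-4.40, adjusted p = 8.0e-05) and Pou2f3 (-1.55, adjusted p = 0.008) were decreased and Trpm5 (1.38, adjusted p = 0.0088) was increased, and their sum was 10.7 to 23.4 CPM in controls and 23.3 to 29.4 CPM in deleted mice. Of 5 tested leukocyte markers, 1 was decreased, Cd8a (-1.32, adjusted p = 0.038). The part of these cells in the values of Alox5, Alox5ap, Ltc4s and Pla2g4a was not tested. Hpgds, a prostaglandin D synthase, was increased (2.22, adjusted p = 2.1e-04).

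Of 10 tested genes on a list of other P450 families, 6 were decreased and 3 increased. The tested genes of this list were Cyp3a genes together with Cyp17a1 and Cyp39a1. Cyp17a1 and Cyp39a1 do not belong to the Cyp3a subfamily, and both were decreased. Across all tested genes the shares were 12.7% and 12.4%. This count did not cover all P450 families outside 1, 2 and 4. Cyp3a11 fell from 1356 to 90.9 CPM on average (-3.90, adjusted p = 1.4e-04), and Cyp2b10, left out of the family 2 counts, from 917 to 5.06 CPM (-7.50, adjusted p = 4.1e-06). The 3 increased genes were Cyp3a16 (adjusted p = 0.0015), Cyp3a41a (adjusted p = 9.5e-05) and Cyp3a41b (adjusted p = 2.2e-04), which had at most 0.09 CPM in any control and at most 2.61 CPM in any deleted mouse.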

How the data were processed

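Poly(A) RNA of 6 libraries was sequenced. The deposited table held raw read counts per gene and mouse, made by the authors with STAR 2.4.0f1 after bcl2fastq 1.8.4 per the labels. The build was given as GRCm38 in the study's methods and as mm9 in the submitters' processing notes. The read counter and annotation are not given in the sources used here. The 6 deposited columns of scaled values, of unit score, and the authors' own fold changes and p-values were not used.

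Counts were tested with edgeR 4.0.16 (filterByExpr, TMM, robust quasi-likelihood, prior count 0.125) over 15618 of 19616 genes with Benjamini-Hochberg adjustment. Calls required a 2-fold difference or more and an adjusted p no higher than 0.05. The standard error is the log2 fold change over the square root of F. CPM used TMM-scaled library sizes. Library totals were 36111035 to 65902344 counts, where 3 counts stand for 0.0405 to 0.079 CPM. Intervals and floors cover counting error only. The fit was also run on simulated counts with planted changes, and some of these were missed, so an uncalled gene may still differ. Groups followed the genotype labels. Neither batch, which the labels do not give, nor the Y-linked reads of C3 entered the model. The p-values set each group difference against the variation within these groups of 3 and 3 mice, estimated for each gene partly from all genes. DESeq2 1.42.0, other scalings, filters and prior counts, and leaving out each mouse were alternatives.

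Positions, exon lengths and shared 100-base transcript windows came from GENCODE (GRCm38), matched by Ensembl identifier for all 52 genes. Promoters came from RefSeq (GRCm38.p6), matched by symbol for 43. Members and lists were chosen with earlier results of these data known. All members are named. Called members, and those with a group mean of at least 10 CPM, are given per mouse, and genes outside the families only from fixed lists when called or needed to read a member. Hnf4a and Hnf4g were named after their values were seen.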

Additional observations from a re-analysis of the deposited data

How the results depend on the processing

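Of 22 called genes, 20 kept their call under each of the 12 alternative fits that tested them, and Cyp2d10 and Cyp2j6 did not. No fold change of a called gene reversed. The count of decreased genes was 17 to 23 and of increased genes 4 to 7 when 1 mouse was left out, both highest without C1 (23 and 7). With library totals in place of TMM, which raised the median log2 fold change of all genes by 0.19, 7 genes were increased and 17 decreased. With at least 10 counts required in every mouse only 25 of the 52 genes were tested, and 10 were decreased and 3 increased. DESeq2 called 19 decreased and 5 increased. Of 18 uncalled genes, 9 were called under at least 1 alternative. No paired analysis was possible because the mouse names share only 1 number between the groups. An exact permutation test of 3 against 3 mice cannot go below p = 0.10, so the calls rest on the model. Low counts in 1 group limit the fold changes of scarce called genes, among them Cyp2e1, Cyp2a5, Cyp2r1, Cyp2d34, Cyp4f39, Cyp4f17, Cyp4f15 and Cyp1a2. With a prior count of 2, the log2 fold change of Cyp4f39 was -2.7.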
